A study of Mus musculus with 3 samples.

Results

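The genes described here encode ATP-binding cassette (ABC) efflux pumps, membrane proteins that use ATP to export drugs, conjugates and lipids from cells. They were 10 of the 18193 genes with a named probe set, *Abcb1a*, *Abcb1b*, *Abcc1*, *Abcc2*, *Abcc3*, *Abcc4*, *Abcc5*, *Abcg2*, *Abca1* and *Abcg1*. All probe sets annotated to exactly 1 of them were used, 25 of the 45101 on the array. A probe set is a group of short probes whose readings are combined into 1 signal. Of the 25, 8 have a suffix that says they may read more than 1 transcript. The genes were chosen by their signals in the cardio-renal and uninephrectomy arrays compared here, so their values are given as a description, without a test of the members.

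Kidney RNA came from male C57BL/6J mice aged 16 weeks, and all groups had lost 1 kidney. The cardio-renal syndrome group (2 arrays) had a constriction of the abdominal aorta placed below the branching of the renal arteries, and uninephrectomy 2 weeks after it. The comparison group (1 array) had uninephrectomy alone. The design text also mentions sham operations, without tying them to an array. The remaining kidney was taken 6 weeks after the uninephrectomy and homogenised. Whether each array was made from 1 mouse or from a pool is not stated in the labels, so what the spread between arrays measures is not known. The comparison asks how pump transcripts differ between uninephrectomised mice with and without an aortic band.

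In kidney proximal tubule cells, organic anions and cations are taken up on the blood side and exported into urine by pumps on the apical membrane. P-glycoprotein, encoded in mice by the paralogs *Abcb1a* and *Abcb1b*, exports hydrophobic and cationic drugs. MRP2 (*Abcc2*), MRP4 (*Abcc4*) and BCRP (*Abcg2*) export conjugates, cyclic nucleotides and urate, while *Abca1* and *Abcg1* load cholesterol and phospholipid onto high-density lipoprotein (HDL) and are induced by the oxysterol receptors LXR.

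Promoters are shown for *Abcb1b*, *Abcb1a* and *Abcc4*, which lay high together on cardio-renal array 1. With dim probe sets counted, these 3 genes stood furthest from the uninephrectomy array on array 1. For *Abcb1a* that place rests on a dim probe set (1419758_at), with a log2 difference of 1.78. Its brighter probe set (1419759_at) stood at 0.74, nearer than an *Abcc5* probe set (1435684_at) at -0.81. Each sequence is from RefSeq (GRCm38.p6) and runs from 250 bases before to 50 bases after the annotated gene start, 5′ to 3′. *Abcb1a* and *Abcb1b* lie on the same strand of chromosome 5 with starts 231 kb apart, and for *Abcc4*, which has more than 1 annotated start, the upstream one is shown. Capitals mark matches, on either strand, to 6 short motifs. They are the CCAAT box (CCAAT), the GC box (GGGCGG), the xenobiotic response core (GCGTG), the antioxidant response core (TGACNNNGC), the steroid receptor core (AGAACA) and the nuclear receptor core (AGGTCA).
Abcb1b, chr5:8797897-8798196, plus strand: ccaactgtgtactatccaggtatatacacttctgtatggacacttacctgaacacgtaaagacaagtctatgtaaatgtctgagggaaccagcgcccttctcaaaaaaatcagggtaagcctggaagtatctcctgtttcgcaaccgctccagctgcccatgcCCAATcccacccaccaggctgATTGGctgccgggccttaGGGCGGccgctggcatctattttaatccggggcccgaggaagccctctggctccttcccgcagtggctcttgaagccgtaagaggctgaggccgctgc
Abcb1a, chr5:8566841-8567140, plus strand: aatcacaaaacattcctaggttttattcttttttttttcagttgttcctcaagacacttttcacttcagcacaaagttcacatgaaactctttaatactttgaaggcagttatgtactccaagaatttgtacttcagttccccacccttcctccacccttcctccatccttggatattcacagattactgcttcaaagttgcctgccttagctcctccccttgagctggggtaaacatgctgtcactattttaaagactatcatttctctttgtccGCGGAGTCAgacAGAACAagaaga
Abcc4, chr14:118706170-118706469, minus strand: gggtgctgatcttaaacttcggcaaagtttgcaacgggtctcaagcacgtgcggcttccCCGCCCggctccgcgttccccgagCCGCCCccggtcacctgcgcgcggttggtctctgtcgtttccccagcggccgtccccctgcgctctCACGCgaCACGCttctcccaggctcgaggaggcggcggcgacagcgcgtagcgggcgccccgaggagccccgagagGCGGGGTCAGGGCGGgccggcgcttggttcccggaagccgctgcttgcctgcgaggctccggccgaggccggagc
The *Abcb1b* promoter held a pair of CCAAT boxes on opposite strands and a GC box before the start, the *Abcb1a* promoter an antioxidant and a steroid receptor core after it. The *Abcc4* promoter held 3 GC boxes, 2 xenobiotic response cores and 1 antioxidant response core, the last directly beside a GC box, and 72.7% of its bases were G or C, against 55% for *Abcb1b* and 40.3% for *Abcb1a*. Among 32851 mouse promoters of the same length, 37.4% held a CCAAT box, 35.7% a GC box, 32.4% a xenobiotic, 12.4% an antioxidant, 19% a steroid receptor and 16.3% a nuclear receptor core. No motif match was shared by all of the 3 promoters. A match is a string of letters and not evidence of binding, and 7 of the 10 genes had a promoter in the table.

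The values are MAS5 signals, a linear measure of brightness, and signals of different probe sets cannot be set against each other. Each array's mean after trimming 2% at each end was 500, and medians lay between 100.1 and 105.9. The 3′ to 5′ signal ratio of the actin control, a measure of RNA integrity, was 1.72 and 1.73 on the cardio-renal arrays and 1.72 on the uninephrectomy array. Differences are log2(signal + 28.8), which understates the change of dim probe sets. A probe set was kept when its mean on that scale reached 7.01, the median of all probe sets other than controls, which left 22519 of 45037. Of the members, 16 were kept and 9 were not; the dim ones were the *Abcc3* probe set, 3 of *Abcc5*, 2 of *Abca1*, and 1 each of *Abcb1a*, *Abcb1b* and *Abcg1*. Proximal tubule markers, the label check for kidney, had signals of 4823 to 21129 on cardio-renal array 1, 7099 to 27803 on array 2 and 6196 to 26711 on the uninephrectomy array.

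The cardio-renal arrays differed from each other on some gene lists, which were chosen with earlier results of these data known. In array 1 all 14 kept genes of a male-biased kidney list were lower than with uninephrectomy alone, and 5 differed at least 2-fold. In array 2, 5 were lower and 0 differed 2-fold. Of all 11146 kept genes, 5392 were lower in array 1, 69 of them at least 2-fold, and 5655 were lower in array 2. Of 5 kept fibroblast and pericyte markers, 3 were lower in array 1 and 5 in array 2. Each pump result is therefore given for each cardio-renal array. Over all kept probe sets, limma's moderated test with Benjamini-Hochberg adjustment called 0 of 22519 (0%), with 627 at an unadjusted p under 0.05. The test has 1 residual degree of freedom and takes the lone uninephrectomy array to vary like the cardio-renal pair.

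**Figure D1:**
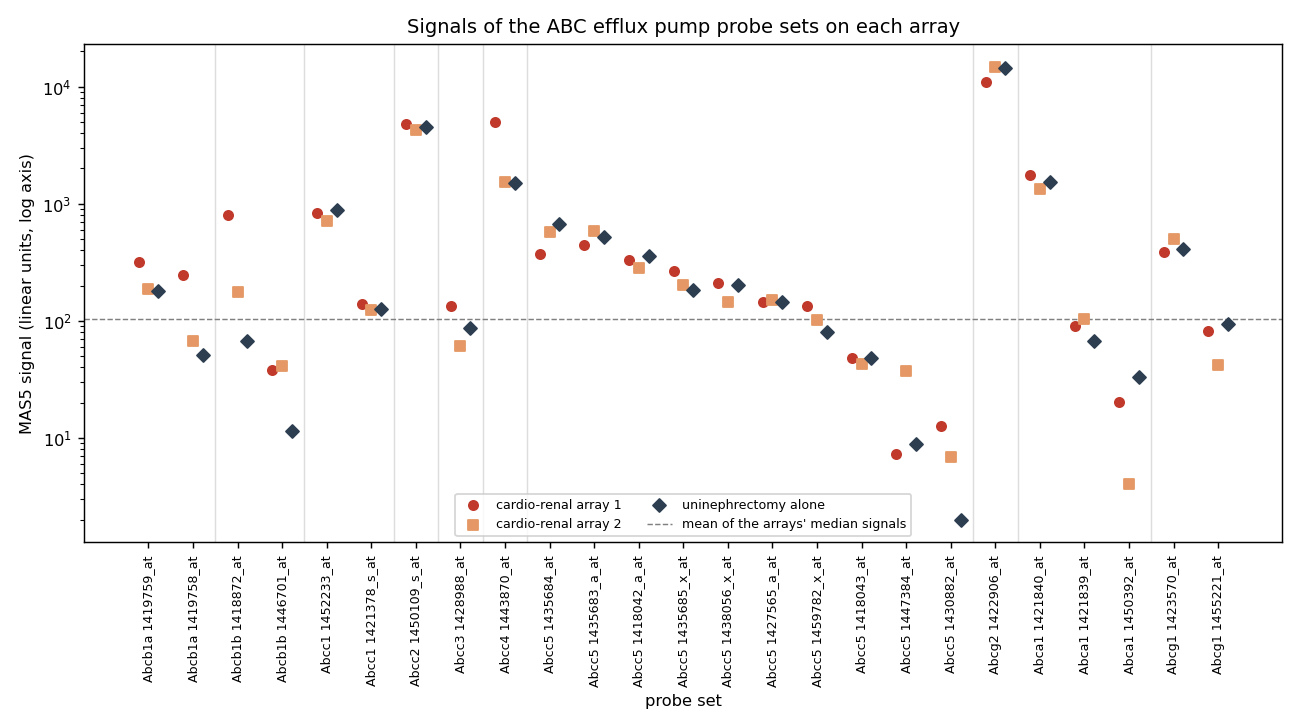
MAS5 signal (log axis) of the 25 probe sets of the 10 pump genes on cardio-renal array 1, cardio-renal array 2 and the uninephrectomy array, 1 point per array. Array 1 lies above both others for the brighter *Abcb1b* probe set, both *Abcb1a* probe sets and *Abcc4*, whereas the points of *Abcc2* nearly coincide.

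*Abcb1b*, an inducible gene for P-glycoprotein, stood furthest from the uninephrectomy array. Its brighter probe set (1418872_at) had a signal of 796 on cardio-renal array 1 and 176 on array 2, against 67.3 on the uninephrectomy array. Both cardio-renal arrays were thus higher, array 1 by 11.8 times and array 2 by 2.61 times in raw signal. On the log2 scale these differences were 3.10 and 1.09, with a mean of 2.09 ± 1.42 (SD, n = 2). Of the 22519 kept probe sets, 9 had a larger difference in array 1 and 45 a larger one in array 2. The uninephrectomy signal lay below that array's median, so the size of the fold rests on a dim value. The other *Abcb1b* probe set (1446701_at) was dim on every array, at 37.6 and 40.8 on the cardio-renal arrays and 11.5 on the uninephrectomy array. It was also higher in both cardio-renal arrays, by 0.72 and 0.79 (log2), but array 1 was not above array 2 there.

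*Abcb1a*, the neighbouring P-glycoprotein gene, was separated mainly on array 1. Its brighter probe set (1419759_at) had signals of 319.8 and 186 on cardio-renal arrays 1 and 2, against 179.9 with uninephrectomy alone. Array 2 and the uninephrectomy array nearly coincided, and array 1 was 0.74 higher than the uninephrectomy array on the log2 scale. The dimmer probe set (1419758_at), which just missed the filter, had signals of 244, 66.7 and 50.5 on cardio-renal array 1, array 2 and the uninephrectomy array. Its log2 differences were 1.78 in array 1 and 0.27 in array 2. The 2 paralogs are close copies, and whether their probe sets separate them was not tested.

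*Abcc4* encodes MRP4, which exports cyclic nucleotides, urate and conjugates, and its transcript is more abundant in kidneys of female than of male mice. Its probe set (1443870_at) had a signal of 4986 on cardio-renal array 1 and 1543 on array 2, against 1491 on the uninephrectomy array. Array 1 alone was high, and array 2 stood at a raw signal ratio of 1.03 to the uninephrectomy array. The log2 differences were 1.72 and 0.05, with a mean of 0.89 ± 1.18 (SD, n = 2), so the mean is smaller than the spread between the arrays. Of all kept probe sets, 27 had a larger difference in array 1, against 8554 in array 2.

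Of the other apical pumps, *Abcc2* lay near the uninephrectomy array on both cardio-renal arrays and *Abcg2* on array 2 alone. *Abcc2*, the gene for MRP2, had signals of 4811 and 4290 on the cardio-renal arrays and 4529.7 on the uninephrectomy array, which lay between them. Its log2 differences were 0.09 and -0.08. *Abcg2*, the gene for the urate and drug pump BCRP, had signals of 11031 and 14825 on cardio-renal arrays 1 and 2, against 14361 with uninephrectomy alone. Array 1 was the low one for *Abcg2*, at -0.38, while array 2 stood at 0.05. Of the 22519 kept probe sets, 1339 had a lower difference in array 1. On array 1, *Abcg2* and *Abcc4* lay on opposite sides of the uninephrectomy array.

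The basolateral and widely expressed pumps of the *Abcc* family showed no common direction. *Abcc1*, the gene for the glutathione-conjugate pump MRP1, had signals of 830.4 and 708 on the cardio-renal arrays, against 891 on the uninephrectomy array (1452233_at). Both cardio-renal arrays were slightly lower there, by differences of -0.10 and -0.32. Its other probe set (1421378_s_at), which by its suffix may read more than 1 transcript, had signals of 139.9, 123 and 126 in the same order and nearly coinciding arrays. *Abcc3*, the gene for the basolateral conjugate pump MRP3, was dim, with signals of 133 and 60.5 on the cardio-renal arrays and 86.3 on the uninephrectomy array. The uninephrectomy value lay between them, at log2 differences of 0.49 and -0.37.

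*Abcc5*, the gene for the cyclic nucleotide pump MRP5, had 10 probe sets that disagreed. Of its 7 kept probe sets, 2 were higher in both cardio-renal arrays, 2 were lower in both and 3 differed in sign between the arrays. The mean log2 differences of these 7 ran from -0.50 to 0.41. The lowest belonged to 1435684_at, with signals of 369 and 576 on cardio-renal arrays 1 and 2, against 667 on the uninephrectomy array. Array 1 was the low one on this probe set, and 212 of the 22519 kept probe sets had a lower difference there. The highest belonged to 1459782_x_at, at 134 and 102.3 on the cardio-renal arrays and 80.8 on the uninephrectomy array, where both cardio-renal arrays were higher. The 3 dim *Abcc5* probe sets had signals between 1.99 and 47.6, all below the arrays' medians.

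The lipid pumps stayed near the uninephrectomy array on their kept probe sets. *Abca1*, which loads cholesterol onto apolipoprotein A-I, had signals of 1746 and 1333 on cardio-renal arrays 1 and 2, against 1545 on the uninephrectomy array (1421840_at). The uninephrectomy value lay between the cardio-renal arrays, at differences of 0.17 and -0.21. Of its dim probe sets, 1421839_at was higher in both cardio-renal arrays (89.6 and 102.7, against 66.9) and 1450392_at lower in both (20.1 and 4.02, against 32.99), so the dim probe sets pointed in opposite directions. *Abcg1*, which passes sterols to mature HDL, had signals of 389.9 and 500.4 on the cardio-renal arrays and 413 on the uninephrectomy array (1423570_at), with differences of -0.08 and 0.26. Its dim probe set (1455221_at) had signals of 81.1 and 41.7, against 94.0, and was lower in both cardio-renal arrays.

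**Figure D2:**
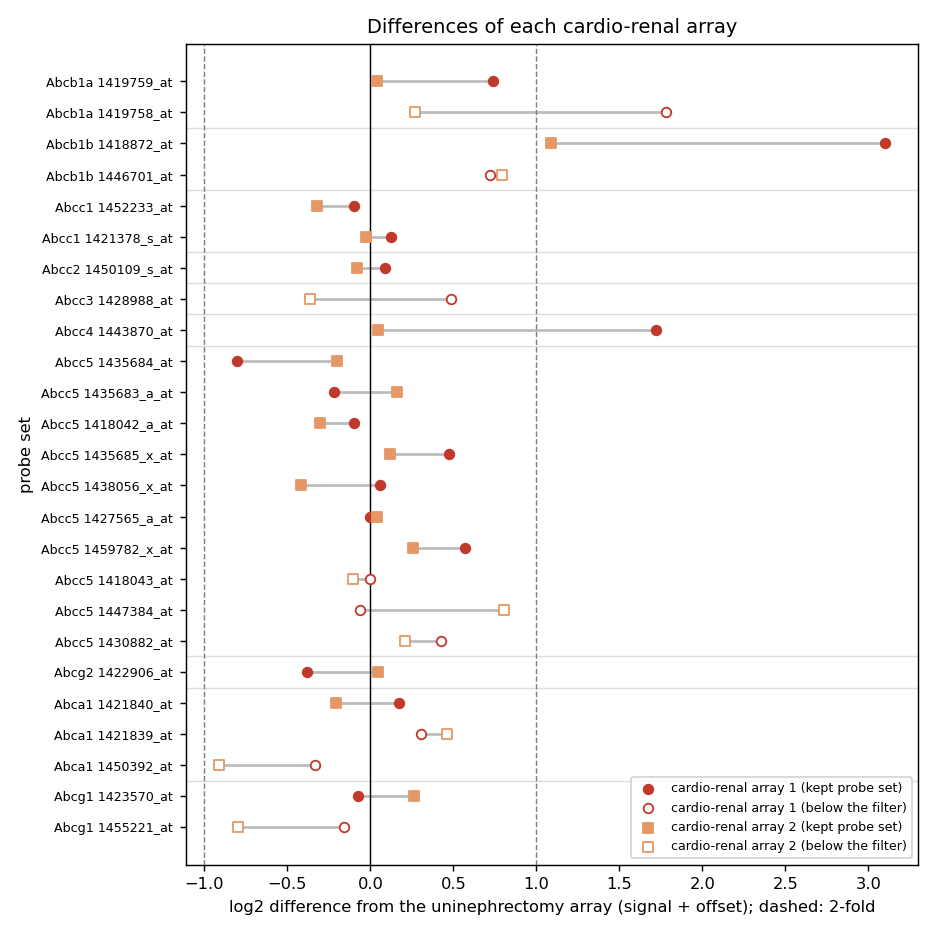
Log2 difference of each cardio-renal array from the uninephrectomy array for the 25 probe sets; circles are array 1, squares array 2, open symbols the 9 probe sets below the filter, and dashed lines mark 2-fold. In array 1 the brighter *Abcb1b* probe set (3.10), the dimmer *Abcb1a* probe set (1.78) and *Abcc4* (1.72) pass 2-fold, and in array 2 only *Abcb1b* does (1.09).

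Counts of members were read beside the share of all kept probe sets past the same line. In both cardio-renal arrays, 1 of the 16 kept members was at least 2-fold higher than in the uninephrectomy array (*Abcb1b*), where 0.142% of all kept probe sets were. The filter used the mean of all arrays, so high cardio-renal signals could help a probe set to pass. Without the filter, 1 of the 25 members was 2-fold higher in both, where 0.422% of all probe sets other than controls were. Of the 16 kept members, 0 were at least 2-fold lower in both, where 0.0533% of kept probe sets were. In array 1 taken alone, 2 were at least 2-fold higher (*Abcb1b* and *Abcc4*; background 0.488%) and 0 lower (background 0.528%). In array 2 taken alone, 1 was at least 2-fold higher (background 0.266%) and 0 lower (background 0.209%). The genes were proposed from these contrasts, so nothing is read from these shares. Counting any size of difference, 5 of the 16 kept members were higher in both arrays and 3 lower in both, against 31.8% and 29.7% of all kept probe sets. Both arrays were set against the same uninephrectomy array, so a direction they share can come from that array alone. The median difference over all 25 members was 0.09 in array 1 and 0.04 in array 2, against 0.02 and 0.01 over all probe sets.

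**Figure D3:**
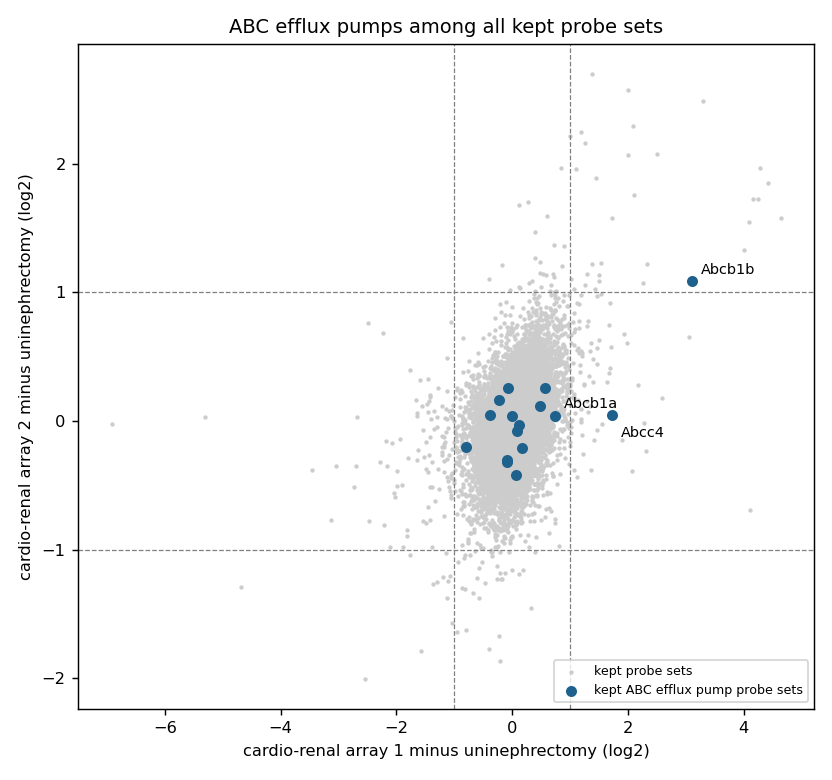
Log2 difference from the uninephrectomy array in cardio-renal array 1 (x axis) and array 2 (y axis) for the 22519 kept probe sets (grey) and the 16 kept pump probe sets (blue), with 2-fold lines dashed. *Abcb1b* lies beyond 2-fold on both axes (3.10 and 1.09), *Abcc4* on the x axis alone (1.72 and 0.05).

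Set directly against array 2, cardio-renal array 1 was higher for 17 of the 25 members and lower for 8. Of all probe sets other than controls, 51.9% were higher in array 1. Of the 16 kept members 11 were higher in array 1, where 55.1% of all kept probe sets were. At least 2-fold differences were found for 2 of the 16 kept members, both higher in array 1 (background 0.466%), and for 0 lower in array 1 (background 0.506%). *Abcb1b* stood 2.01 higher in array 1 than in array 2 and *Abcc4* 1.67 higher, and 14 and 19 of the kept probe sets had larger differences. The dim *Abcb1a* probe set stood 1.51 higher in array 1 than in array 2 and the brighter one 0.70 higher. For comparison, the SD of the difference between array 1 and array 2 over all kept probe sets was 0.32. The 20 probe sets of the 7 remaining genes lay between -0.87 (a dim *Abcc5* probe set) and 0.85 (*Abcc3*) in the same comparison, and the 13 of them that were kept, from 6 genes, between -0.60 and 0.48. With 2 arrays of a group, this difference has no replicate of its own. The genes were proposed with these signals in view, so nothing is read from these ranks and shares.

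Male-biased kidney genes lay low on array 1, the array on which *Abcc4*, *Abcb1a* and the brighter *Abcb1b* probe set lay high. For the male-biased list (16 genes, 14 kept) the median difference was -0.79 in array 1 and 0.03 in array 2, and 0 of 14 genes were higher in array 1. At least 2-fold lower genes made up 0.619% of all 11146 kept genes in that array, and at least 2-fold higher genes 0.476%. *Slco1a1*, which encodes an organic anion carrier that depends on androgen, had a signal of 22.5 on array 1 and 6064 on array 2, against 6161 on the uninephrectomy array. *Cyp4a12a*, which makes the vasoconstrictor 20-HETE, had signals of 550.1 and 5518, against 3238. In the female-biased list (4 kept genes of 5, pump genes left out) the medians were 0.59 in array 1 and 0.31 in array 2, and that of array 1 was 0.03 without the filter and 1.16 without shared-sequence probe sets, whose suffix says that they may read more than 1 transcript. *Slc7a12*, an amino acid transporter, had signals of 6011 and 695 on the cardio-renal arrays and 213 on the uninephrectomy array. *Slc22a7*, an organic anion transporter of the same list, went the other way, at 459.6 and 3124, against 3985. The other kept genes of the list, *Cyp4a14* and *Slco1a6*, stood at 1.16 and 0.38 and at 0.03 and 0.25. The part of sex-biased expression in the pump values was not tested.

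**Figure D4:**
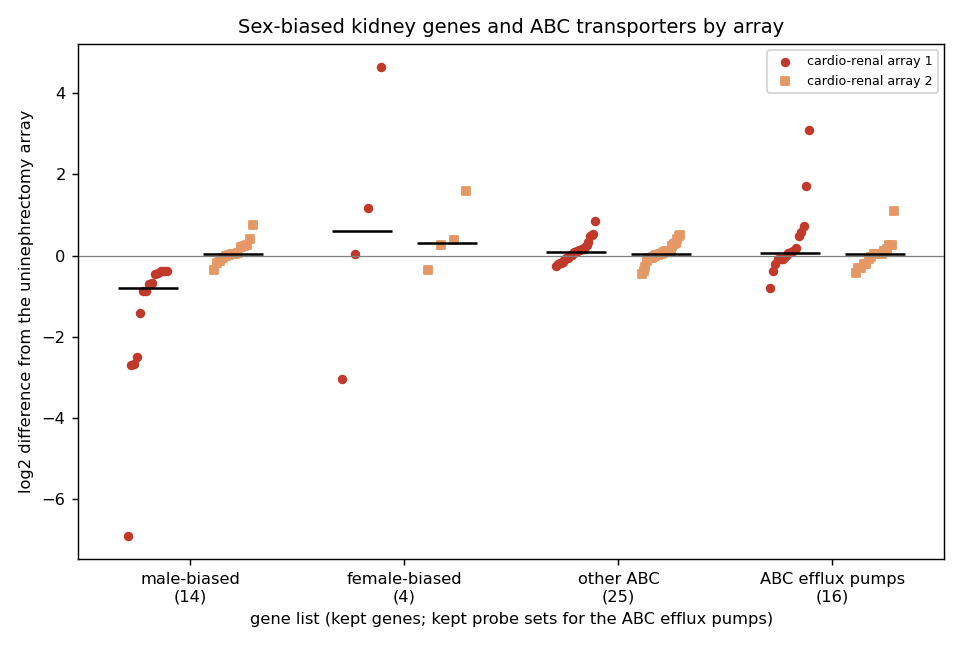
Log2 difference from the uninephrectomy array in cardio-renal array 1 (circles) and array 2 (squares) for kept male-biased genes (14), female-biased genes (4), other ABC transporters (25) and pump probe sets (16); black bars are medians. Male-biased genes lie below 0 in array 1 (median -0.79) and around 0 in array 2 (0.03).

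The rest of the ABC family held no kept gene 2-fold apart from the uninephrectomy array. Of 38 other ABC genes with a probe set, 25 were kept. In both cardio-renal arrays 10 of these lay higher and 2 lower, beside 30.6% and 29.8% of all kept genes. Their medians were 0.08 in array 1 and 0.03 in array 2, against 0.0084 and -0.0028 over all kept genes. The 16 kept pump probe sets had medians of 0.07 and 0.04, close to these. Among kept genes the furthest was *Abcc9*, a sulfonylurea receptor subunit of potassium channels, with signals of 961 and 726 on the cardio-renal arrays, against 516 on the uninephrectomy array. Both cardio-renal arrays were higher, by 0.86 and 0.47. *Abcc6*, the gene mutated in pseudoxanthoma elasticum, followed at 0.53 and 0.51, then *Abca4* at 0.50 and 0.23 and *Abca5* at 0.49 and 0.27. *Abcb4*, a phosphatidylcholine transporter close in sequence to the P-glycoproteins, lay below the filter, with signals of 132 and 96.8 on the cardio-renal arrays and 56.9 on the uninephrectomy array. Its differences of 0.91 and 0.55 were larger than those of *Abcc9* in both arrays.

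Regulators of pump genes gave no common direction. Of 20 genes 15 were kept, 5 of them higher and 5 lower in both cardio-renal arrays. Median differences were -0.02 for array 1 and 0.01 for array 2 (0.04 and -0.05 when probe sets of a gene were averaged). *Nr1i2*, the xenobiotic receptor PXR, had signals of 94.7 and 105.4 on the cardio-renal arrays and 141 on the uninephrectomy array, lower in both cardio-renal arrays. *Srebf2*, a sterol-sensing transcription factor, stood at 0.57 and 0.79, *Ppara*, the fatty acid receptor, at 0.38 and 0.28, and *Ppard* at -0.10 and 0.43. For the lipid pumps, 3 of 15 kept LXR targets lay higher in both arrays and 6 lower; the median difference was -0.09 in each. *Apoe*, an apolipoprotein that accepts cholesterol, had signals of 4703 on array 1 and 1667 on array 2, against 1993 on the uninephrectomy array, so array 1 alone was high. The other targets named by rule were *Scd1* (0.76 and 0.23), *Lpl* (-0.59 and -0.0044) and *Mylip* (0.57 and -0.09).

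Among 11 kept partners of HDL and cholesterol efflux, 3 lay higher and 4 lower in both arrays, and median differences were -0.19 and -0.11. *Cd36*, a fatty acid and lipoprotein receptor, had signals of 1975 on array 1 and 6088 on array 2, against 5557 on the uninephrectomy array, and *Nceh1*, a cholesteryl ester hydrolase, stood at -0.72 and -0.11. The HDL receptor gene *Scarb1* was higher in both, at 0.41 and 0.29. The 7 scaffold genes that anchor apical pumps lay between -0.34 and 0.23 in array 1, their ends being *Pdzd3* and the radixin gene *Rdx*, and their median differences were 0.06 (-0.03 when probe sets of a gene were averaged) and -0.02.

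Uptake carriers that feed the pumps were split on array 1 and lay mostly higher on array 2. On array 1, 5 of 10 anion and urate carriers lay higher and 5 lower, and 1 of 4 cation carriers higher and 3 lower. On array 2, 8 of the 10 and 4 of the 4 lay higher. Of all 11146 kept genes, 5754 lay higher on array 1 and 5491 on array 2. Of 10 kept organic anion and urate carriers, 4 lay higher in both cardio-renal arrays and 1, *Slc22a7*, lower in both. The median difference was -0.02 for array 1 (0.05 after quantile normalization, 0.26 without shared-sequence probe sets) and 0.13 for array 2. *Slc17a3*, an apical urate and phosphate carrier, stood at -0.75 and 0.06, *Slco4c1*, a basolateral organic anion carrier, at 0.64 and 0.22, and *Slc16a9* at 0.60 and 0.31. The 4 kept organic cation carriers had medians of -0.21 and 0.13. *Slc22a2*, the basolateral cation carrier OCT2, had signals of 3894 and 6379, against 5504 on the uninephrectomy array, low on array 1, and *Slc47a1*, the apical exchanger MATE1, stood at -0.25 and 0.15.

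**Figure D5:**
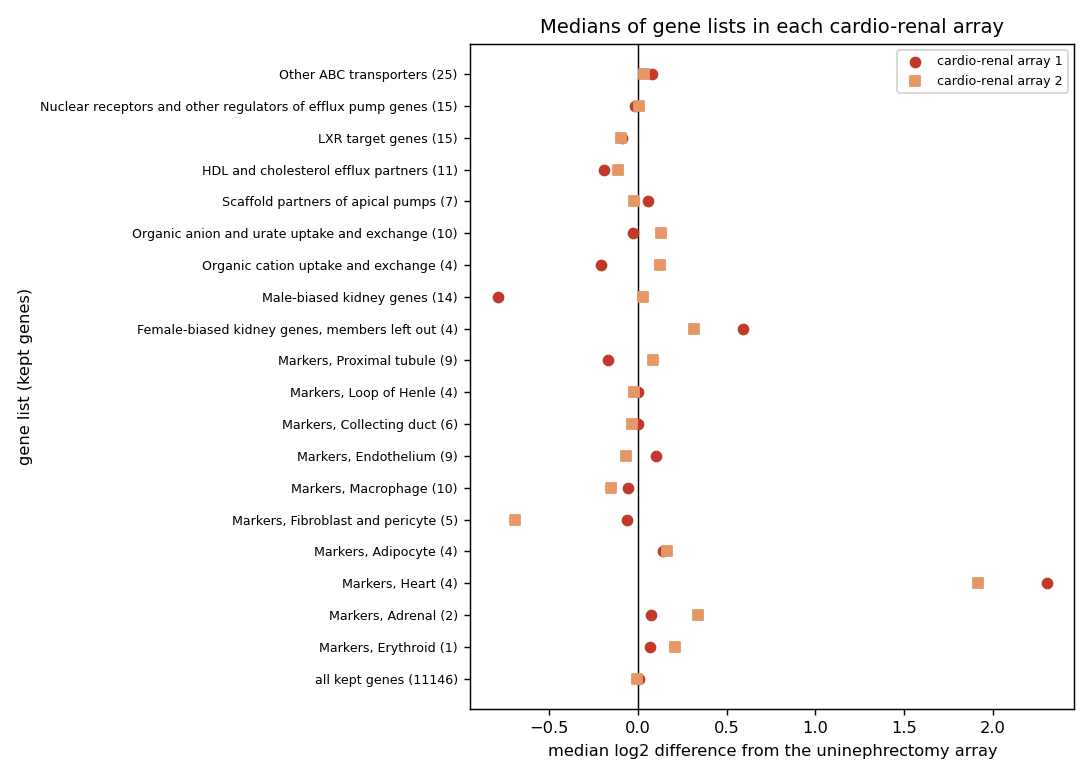
Median log2 difference from the uninephrectomy array of each gene list in cardio-renal array 1 (circles) and array 2 (squares), with the number of kept genes in brackets. Most medians lie near 0; the male-biased list (-0.79 in array 1), fibroblast markers (-0.69 in array 2) and heart markers (2.30 and 1.92) lie furthest out.

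Markers of other cell types were set beside the pump values, since homogenised kidney cannot tell fewer cells of a type from less RNA per cell. Endothelial markers, of interest because vessels carry P-glycoprotein, (9 genes) showed median differences of 0.10 for array 1 and -0.06 for array 2, with 4 genes higher in both and 2 lower in both. Their summed signal was 10187 on array 1 and 9183 on array 2, against 10065 on the uninephrectomy array. Macrophage markers, of interest for *Abca1* and *Abcg1*, (10 genes) showed -0.06 and -0.15, with 3 higher in both and 7 lower in both, and a summed signal of 6547 and 7070.2, against 7787. The largest part of that sum was the brightest gene, *Csf1r*, at 2845 and 3683, against 3708. Proximal tubule markers (9 genes) showed -0.17 and 0.09, with 3 higher in both and 2 lower in both, and fibroblast and pericyte markers (5 genes) -0.06 and -0.69. The remaining medians were -0.0011 and -0.02 in loop of Henle (4 genes; 0.12 for array 1 after quantile normalization), 0.0001 and -0.04 for the collecting duct (6), 0.14 and 0.16 for adipocytes (4), 0.08 and 0.34 for adrenal gland (2) and 0.07 and 0.21 for erythroid cells (1). For array 1 the adrenal median was 0.47 without the filter and -0.50 without shared-sequence probe sets, the erythroid one -0.49 without the filter, and without shared-sequence probe sets the adipocyte median was -0.11 and the fibroblast one 0.04. All 8 heart markers had higher signals in both cardio-renal arrays, and the summed signal was 2154 on array 1 and 1626 on array 2, against 324 on the uninephrectomy array. Of these markers 4 were kept. Uninephrectomy signals of the 8 ran from 1.97 to 156, so the size of the difference rests largely on dim values. Lymphocyte markers (4 genes) were all below the filter, with signals of 4.97 to 75.7 over the 3 arrays. The part of these cell types in the pump values was not tested.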

How the data were processed

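The authors deposited 1 table of MAS5 intensities (linear signals) from single-colour Affymetrix 3′ arrays of 250 ng total RNA. MAS5 is named per the submitters' processing notes, with no version stated. It subtracts the signal of mismatch probes, so low values are noisy, and no detection calls were used. Each array was already scaled, so none was scaled again. Probe sets were named from the platform annotation through Entrez IDs (34958 with 1 symbol, 932 with several and left unnamed, 9211 unnamed here, 64 of all being controls). The offset of 28.8 is the median of the arrays' 25th percentiles. In gene lists, the probe set of highest mean stood for its gene. The fit used limma 3.58.1 in R 4.3.3 over all 3 arrays (lmFit, eBayes with a mean-variance trend, two-sided, adjusted at 0.05). The number of arrays limits the precision. The members and the 20 gene lists were chosen with earlier results of these data known; the members were named in full, and of other lists up to 4 genes by the larger of their differences in either array. *Abcb4* was named after its values were seen, and so were the motifs searched. Alternatives changed the scaling, offset, filter, probe sets, variance model and arrays.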

Additional observations from a re-analysis of the deposited data

How the results depend on the processing

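Pump probe sets past 2-fold on the higher side in both cardio-renal arrays numbered 1 as reported (*Abcb1b*) and 0 with an offset of 100, an offset that shrinks differences of dim probe sets by construction. The count ranged from 1 without cardio-renal replicate 1 to 2 without replicate 2, where *Abcc4* joined it. Limma called 0 probe sets with the other alternatives and 3 without shared-sequence probe sets, where fewer (16189) were tested; 0 of the 3 were members, and the cause was not tested. The other 28 recomputed counts stayed within 1.5 times the reported ones, among them 3 kept members at least 2-fold higher in array 1 than in array 2 without the filter and with an offset of 100. Differences of the brighter *Abcb1b* probe set averaged 1.57 to 2.46 higher than in the uninephrectomy array, and that of *Abcc4* between array 1 and array 2 from 1.63 to 1.70, over the scaling, offset and probe set alternatives. Leaving out an array leaves limma no residual degrees of freedom, so it was not run there. No paired analysis was possible because there was 1 uninephrectomy array and the array numbers, given in accession order, pair nothing. Low signal limits the members below the filter. With offsets of 1 and 100, the mean differences from the uninephrectomy array were 1.69 and 0.32 for the dim *Abcb1b* probe set, 0.51 and 0.23 for 1421839_at (*Abca1*), and 1.78 and 0.10 for 1430882_at (*Abcc5*), and that of 1450392_at (*Abca1*) was -1.72 with an offset of 1. Between array 1 and array 2, the differences with offsets of 1 and 100 were 1.85 and 1.04 for the dim *Abcb1a* probe set, -2.19 and -0.35 for 1447384_at (*Abcc5*), and 2.07 and 0.21 for 1450392_at. The mean difference of 1427565_a_at (*Abcc5*) was -0.02 after quantile normalization, against 0.02 without it. Heart marker medians were 1.65 and 1.39 with an offset of 100.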
